A study of Mus musculus with 4 samples.

Results

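RNA of the AP-1 transcription factor genes and of a few other immediate early factors was followed in mouse embryonic stem cells that had or had lost Exosc3, which encodes a subunit of the RNA exosome core. The set has 10 genes, chosen by symbol: the Jun family (Jun, Junb, Jund), the Fos family (Fos, Fosb, Fosl1, Fosl2), the zinc finger factors Egr1 and Klf6, and the stress-response gene Ier3. Of these, 9 had a row among the 22883 gene models of the table, each in a single row, and Fosl1 had none. All cells carried the Exosc3 conditional knockout (Exosc3 CKO) and derived from V6.5, a mouse embryonic stem cell line, as clones whose number the labels do not give. In the Exosc3-present group (dox+) the cells stayed in doxycycline at 0.1 µg/ml. In the Exosc3-depleted group (dox-) doxycycline was withheld for 3 days. Each group had 2 libraries of total RNA, depleted of ribosomal RNA and stranded. Doxycycline and Exosc3 differed together, so their effects cannot be told apart, and p-values measure only the spread between these libraries, since nothing says that replicates were separate cultures.

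AP-1 is a dimer of basic leucine zipper proteins. Jun proteins can pair with one another or with Fos proteins, whereas Fos proteins need a Jun partner to bind DNA well. Immediate early genes are switched on rapidly by growth factors and stress without new protein synthesis, and many of their mRNAs are short-lived because AU-rich elements in the 3′ untranslated region attract decay factors. The exosome is among the nucleases that can degrade such mRNAs.

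Values are FPKM, that is, fragments scaled to the length of the gene model and to the library total. The spacing of the values gave the whole fragments behind them: the library totals used for scaling were between 38095698 and 60851774 fragments, and between 42.4% and 51.8% of these lay in listed models. Exosc3 itself was at 24.2 and 23.2 FPKM in the Exosc3-present libraries and at 0.635 and 0.691 in the Exosc3-depleted libraries. It fell by 4.38 on the log2 scale (limma adjusted p = 0.000129), in the direction the labels give. Of 8 embryonic stem cell markers with a row, 6 fell and 0 rose, with a median of log2 -1.41. Among all tested rows 30.1% fell and 12.6% rose, with a median of log2 -0.27. Pou5f1 was 1 of the 2 markers that did not pass. It was at 452 ± 26.5 FPKM (SD, n = 2) with Exosc3 and 349.8 ± 90.0 without (log2 -0.39, limma adjusted p = 0.167).

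Genes were tested with limma on log2(FPKM + 0.5) over the 9336 rows with a mean of at least 0.5 FPKM, and fold changes on the log2 scale refer to those values. Of the 9 members with a row, 7 were tested, each also above 0.5 FPKM on average in the Exosc3-present group alone. Of these 7, 6 rose (Klf6, Jun, Egr1, Junb, Fos and Jund) and 1 fell (Ier3) at an adjusted p under 0.05. Among all tested rows 12.6% rose and 30.1% fell (42.7% in either direction), and the median row was at log2 -0.27. The 6 members rose in each of the 15 alternatives fixed for this work in which they were tested, Fos alone being below the filter at a mean of 2 FPKM. Other scalings moved the median row to between -0.06 and 0.03 on the log2 scale. They changed the share of called rows that were higher from 29.6% to 46.7% (median of ratios), 47.0% (quantile) or 53.7% (without the 50 highest rows).

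**Figure D1:**
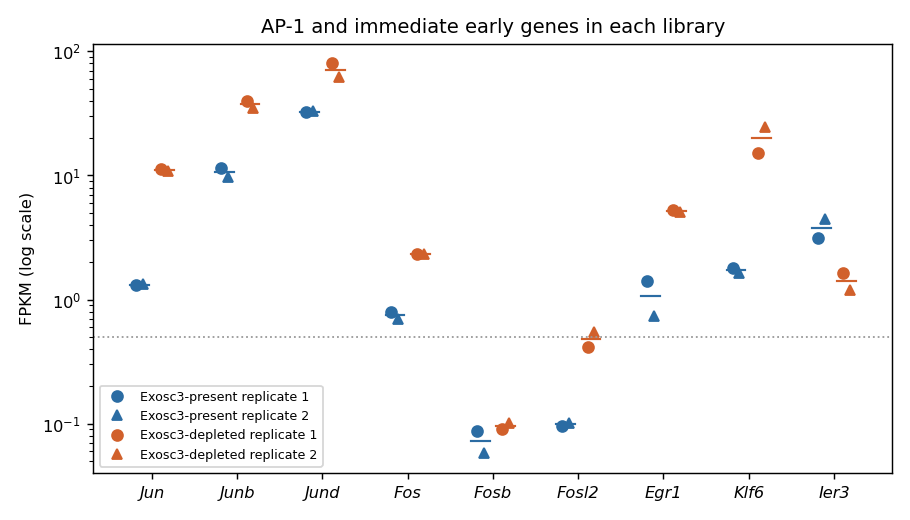
FPKM of the 9 members with a row in each of the 4 libraries, on a log axis; circles and triangles are replicates 1 and 2, short lines are group means and the dotted line marks 0.5 FPKM, the mean a row needed to be tested. The Exosc3-depleted libraries lie above the Exosc3-present ones for Jun, Junb, Jund, Fos, Fosl2, Egr1 and Klf6, below them for Ier3, and close to them for Fosb.

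Jun, the founding AP-1 subunit and a strong activator, was at 1.31 and 1.33 FPKM in the Exosc3-present libraries and at 11.2 and 10.9 FPKM in the Exosc3-depleted libraries. Replicates lay within 1.03-fold of each other in both groups, and 255 and 234 fragments stood against 1363 and 1455. Jun rose 8.36-fold in mean FPKM, by 2.66 on the log2 scale (SE 0.18, limma adjusted p = 0.000251), and 0.611% of tested rows rose further. It moved from the 19.7th to the 72.9th percentile of tested rows by level.

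Junb, a Jun paralogue that can also oppose Jun, was at 11.5 and 9.68 FPKM with Exosc3 and at 39.8 and 35.0 FPKM without it. The groups did not overlap, and the mean rose 3.54-fold (log2 1.78, SE 0.18, limma adjusted p = 0.000693). Among all tested rows, 22.2% were higher without overlap and 50.9% were lower without overlap, 73.1% in all. Jund, the paralogue that many cells express without stimulation, was at 32.4 and 33.0 FPKM with Exosc3 and at 79.9 and 62.5 FPKM without it. Both Exosc3-depleted values were above both Exosc3-present values, and they differed from each other by 1.28-fold, more than their counting intervals. Jund rose 2.18-fold (log2 1.10, SE 0.18, limma adjusted p = 0.00385).

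The Jun family as a whole therefore held more RNA per length, and its makeup shifted. Its summed level was 45.1 and 44.0 FPKM in the Exosc3-present libraries and 131 and 108 FPKM in the Exosc3-depleted libraries, a ratio of means of 2.68. Jun made up 2.91% and 3.02% of that sum with Exosc3 and 8.57% and 10.03% without it. The share of Junb went from 25.4% and 21.99% to 30.4% and 32.3%. The share of Jund went from 71.7% and 75.0% to 61.0% and 57.6%, so Jund stayed the most abundant member in all 4 libraries. The 95% intervals of the log2 changes were 2.24 to 3.09 for Jun, 1.35 to 2.21 for Junb and 0.67 to 1.54 for Jund; the differences between these changes were not tested.

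**Figure D2:**
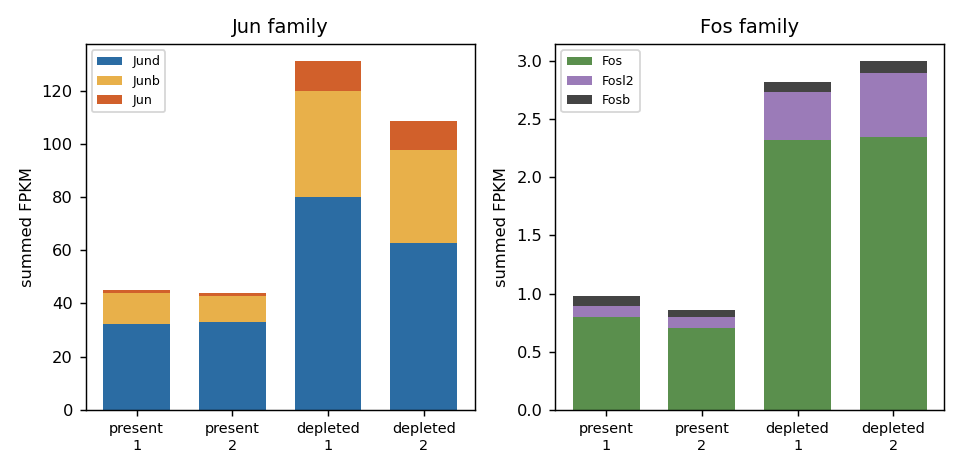
Summed FPKM of the Jun family (left) and of the Fos family without Fosl1, which had no row (right), in each library, stacked by gene. The 2 panels have different vertical scales. The Jun family reached 131 and 108 FPKM and the Fos family 2.82 and 3.00 FPKM in the Exosc3-depleted libraries.

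Some of these levels depend on how the gene was modelled. The Jund model recovered from the values is 2878 bases long, the length of the RefSeq gene, which starts at position 70697739 of chromosome 8 (GRCm38). The GENCODE gene starts at 70698949, and its transcript has 1668 bases. An annotated antisense gene overlaps Jund (Gm11175) and another overlaps Jun (Junos). Neither has a row, and the notes do not say whether counting used strand, so sense and antisense fragments cannot be told apart for Jun and Jund. The recovered models of Jun (3187 bases), Junb (1807), Fos (2093) and Klf6 (4217) were within 15 bases of the GENCODE transcripts.

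Fos, the best known partner of Jun, was far less abundant. It was at 0.801 and 0.701 FPKM in the Exosc3-present libraries (102 and 81 fragments) and at 2.32 and 2.35 FPKM in the Exosc3-depleted libraries (185 and 206 fragments). The mean rose 3.11-fold (log2 1.18, SE 0.17, limma adjusted p = 0.00217), and the Exosc3-depleted replicates lay within 1.01-fold of each other. Fosl2, which encodes FRA-2, was below the level tested, at 0.0953 and 0.102 FPKM against 0.412 and 0.553 FPKM. These are 34 and 33 fragments against 92 and 136, and the mean was 4.89-fold higher without Exosc3. With no filter on low values Fosl2 passed (log2 0.71, limma adjusted p = 0.00966), and limma-voom on the recovered fragments, an alternative chosen after seeing the data, gave log2 2.26 (adjusted p = 0.00105). The pseudocount of 0.5 FPKM is larger than most of these values, so the log2 scale of the former understates the ratio. Fosb was the lowest member, at 0.0870 and 0.0575 FPKM (20 and 12 fragments) against 0.0904 and 0.101 FPKM (13 and 16 fragments). All 4 counting intervals of Fosb overlapped, and a difference was not detectable at this depth.

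The Fos family is summed here over Fos, Fosb and Fosl2 alone, since Fosl1 had no row. It summed to 0.983 and 0.860 FPKM with Exosc3 and to 2.82 and 3.00 FPKM without it, a ratio of means of 3.16. Fos held between 78.2% and 82.2% of that sum in all 4 libraries. The Jun family sum was 45.9 and 51.2 times the Fos family sum in the Exosc3-present libraries and 46.4 and 36.2 times in the Exosc3-depleted libraries. These ratios overlapped between the groups. Jun family RNA thus exceeded the RNA of these Fos family genes, Fosl1 not included, in every library.

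Klf6, a Krüppel-like zinc finger factor, had the largest rise of the members. It was at 1.80 and 1.64 FPKM with Exosc3 and at 15.3 and 24.8 FPKM without it, with 461 and 381 fragments against 2459 and 4386. The Exosc3-depleted replicates differed by 1.62-fold, beyond counting error, yet the lower of them was 8.52 times the higher Exosc3-present value. The mean rose 11.7-fold (log2 3.17, SE 0.25, limma adjusted p = 0.000346), and 0.300% of tested rows rose further. With single libraries left out its log2 change was between 2.84 and 3.51.

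Egr1, a zinc finger factor induced through ERK signalling, was at 1.41 and 0.731 FPKM in the Exosc3-present libraries and at 5.24 and 5.11 FPKM in the Exosc3-depleted libraries. The Exosc3-present replicates differed by 1.93-fold, with 264 and 124 fragments and counting intervals that did not overlap. The mean rose 4.83-fold (log2 1.89, SE 0.25, limma adjusted p = 0.00152). The log2 change was 1.57 at its lowest and 2.20 at its highest when single libraries were left out.

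Ier3, which encodes a short-lived regulator of cell survival, went the other way. It was at 3.11 and 4.47 FPKM in the Exosc3-present libraries and at 1.64 and 1.202 FPKM in the Exosc3-depleted libraries. The groups did not overlap, and the mean fell 2.67-fold (log2 -1.15, SE 0.23, limma adjusted p = 0.00788). Relative to the median row the fall was by 0.88 on the log2 scale, and 8.72% of tested rows fell further. Without Exosc3-present replicate 2, the higher of that pair, the change was log2 -0.92 and did not pass (limma adjusted p = 0.103).

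**Figure D3:**
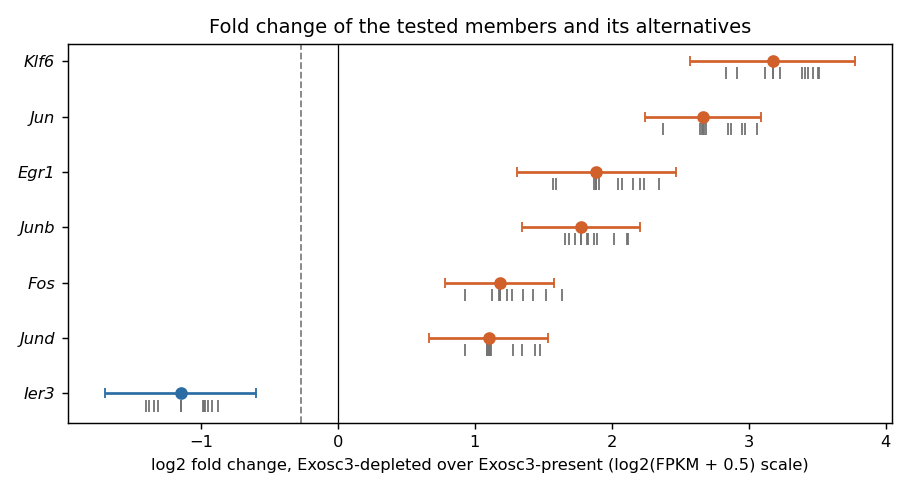
Log2 fold change of the 7 tested members with its 95% interval (points and bars); grey ticks below each are the values under the alternatives, and the dashed line is the median of all tested rows at -0.27. Klf6, Jun, Egr1, Junb, Fos and Jund lie above 0 in every setting and Ier3 lies below 0.

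**Figure D4:**
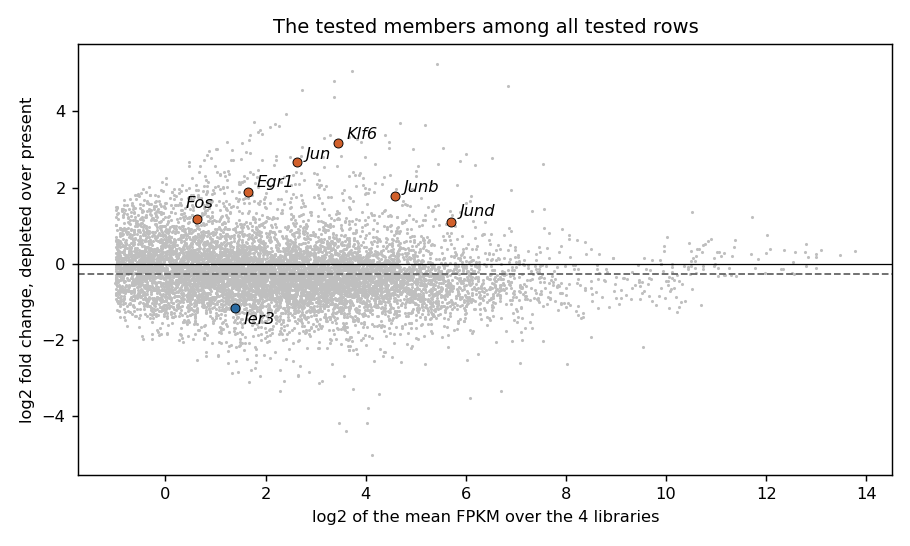
Log2 fold change against the log2 mean FPKM over the 4 libraries for the 9336 tested rows (grey) and the 7 tested members (coloured); the dashed line is the median row. Klf6 and Jun lie near the upper edge of the rows of their level, and Jund and Fos closer to the bulk.

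The order of the members by level changed at Ier3. In the Exosc3-present group the order was Jund, Junb, Ier3, Klf6, Jun, Egr1, Fos, Fosl2 and Fosb. There the replicate values of Jun, Egr1 and Fos ran into each other, Jun with Egr1 and Egr1 with Fos. In the Exosc3-depleted group the order was Jund, Junb, Klf6, Jun, Egr1, Fos, Ier3, Fosl2 and Fosb, and no neighbours overlapped. Ier3 went from rank 3 to rank 7 of 9.

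Sequence features that the choice of genes did not use were read for the members. Promoter windows of 300 bases (250 before and 50 after the start) came from RefSeq on GRCm38.p6 for 8 members; Egr1 and Fosl1 were not matched. The windows are shown for Klf6, Jun, Junb and Fos, which rose, and for Ier3, which fell, so that the risers can be compared with each other and with the gene that went down. Capitals mark the motif matches named below.
Jun (chr4:95052173-95052472, minus strand): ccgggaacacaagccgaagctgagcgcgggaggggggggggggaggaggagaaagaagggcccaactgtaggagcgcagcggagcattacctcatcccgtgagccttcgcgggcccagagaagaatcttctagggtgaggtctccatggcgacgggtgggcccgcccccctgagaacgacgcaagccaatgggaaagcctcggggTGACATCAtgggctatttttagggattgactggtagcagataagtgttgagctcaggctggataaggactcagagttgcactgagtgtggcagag
Klf6 (chr13:5861239-5861538, plus strand): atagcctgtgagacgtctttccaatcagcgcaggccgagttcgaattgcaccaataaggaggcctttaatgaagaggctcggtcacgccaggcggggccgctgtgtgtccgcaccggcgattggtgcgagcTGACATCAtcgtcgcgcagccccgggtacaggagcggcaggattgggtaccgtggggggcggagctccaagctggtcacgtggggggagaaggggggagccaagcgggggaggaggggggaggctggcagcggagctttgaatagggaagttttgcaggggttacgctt
Junb (chr8:84978699-84978998, minus strand): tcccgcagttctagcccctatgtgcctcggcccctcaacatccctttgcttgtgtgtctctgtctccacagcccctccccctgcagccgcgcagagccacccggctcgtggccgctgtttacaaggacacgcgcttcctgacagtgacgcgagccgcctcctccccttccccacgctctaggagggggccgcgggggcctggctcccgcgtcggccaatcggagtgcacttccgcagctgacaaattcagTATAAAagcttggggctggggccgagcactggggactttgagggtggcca
Fos (chr12:85473640-85473939, plus strand): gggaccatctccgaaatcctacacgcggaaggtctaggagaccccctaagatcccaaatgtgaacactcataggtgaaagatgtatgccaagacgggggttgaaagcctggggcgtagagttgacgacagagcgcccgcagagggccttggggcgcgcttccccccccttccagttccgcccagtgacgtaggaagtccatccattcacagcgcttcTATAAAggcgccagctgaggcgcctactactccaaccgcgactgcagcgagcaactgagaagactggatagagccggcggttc
Ier3 (chr17:35821463-35821762, plus strand): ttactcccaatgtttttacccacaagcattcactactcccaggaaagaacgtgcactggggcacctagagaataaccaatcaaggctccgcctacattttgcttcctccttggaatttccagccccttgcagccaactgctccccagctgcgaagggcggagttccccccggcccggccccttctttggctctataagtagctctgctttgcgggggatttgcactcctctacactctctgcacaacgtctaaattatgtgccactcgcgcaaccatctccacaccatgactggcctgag
Both strands were searched for TGACTCA (the AP-1 site), TGACGTCA (the cyclic AMP response element), TGACATCA (the variant known from the Jun promoter), the CArG box bound by SRF, GCGTGGGCG or GCGGGGGCG (EGR sites), CCGGAAG (an ETS site) and TATAAA (the TATA box). No motif shares its letters with another in these windows. TGACATCA lay at -45 to -38 from the start in Jun and at -119 to -112 in Klf6, and 3.37% of 32544 windows hold it. Since this motif was searched because it is known from the Jun promoter, its match in Jun was given in advance. Fos held TATAAA at -33 to -28 and Junb held it at 1 to 6, as do 13.6% of windows. The Junb window is set on the RefSeq start at 84978748, and the GENCODE start lies downstream of it at 84978718. Fosb and Fosl2 held GCGGGGGCG, and 3.50% of windows hold either EGR site. None of the 8 windows held TGACTCA (5.19% of windows), TGACGTCA (1.80%), a CArG box (1.64%) or CCGGAAG (8.91%), which says only that these letters are not in the windows.

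The 3′ untranslated regions were searched for the AU-rich nonamer TTATTTATT, written with T as in the GENCODE transcripts, because such elements mark many short-lived immediate early mRNAs. It occurred in Fos and Fosl2 and not in Fosb, Ier3, Jun, Junb, Jund or Klf6, and 6.47% of 19913 coding genes with such a region hold it. Among the members, Egr1, which rose, and Fosl1 were left out of the transcript features given here. The sites are shown with up to 10 bases on either side and the nonamer in capitals.
Fos: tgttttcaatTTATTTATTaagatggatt
Fosl2: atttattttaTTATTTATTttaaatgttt
The shorter pentamer ATTTA occurred 4 times in Jun, 4 times in Fos, 5 times in Ier3, 7 times in Klf6, 8 times in Fosl2, 2 times in Junb and 1 time each in Jund and Fosb. Ier3, which fell, lies between the tested risers other than Egr1 in this count, with Klf6 above it and Fos, Jun, Junb and Jund below it. The count is not scaled to length. The region has 613 bases in Ier3, 3111 in Klf6, 1233 in Jun, 815 in Fos, 533 in Jund and 485 in Junb. For its length Ier3 held more pentamers than each of these risers. Jun, Junb and Jund each have 1 exon in GENCODE, Ier3 has 2, and Fos, Fosb, Fosl2 and Klf6 have 4.

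Partners of the AP-1 proteins were called at shares near those of all tested rows. Of 15 AP-1 partners and related leucine zipper genes, 10 were tested, of which 1 rose and 3 fell (12.6% and 30.1% of all tested rows), with a median of log2 -0.34 (-0.27 for all tested rows). Atf3, a stress-induced factor that pairs with Jun proteins, was at 2.31 and 2.68 FPKM with Exosc3 and at 10.8 and 8.57 FPKM without it (log2 1.76, limma adjusted p = 0.00102). Jdp2, a Jun partner that represses AP-1 sites, was at 2.16 and 2.53 FPKM with Exosc3 and at 0.176 and 0.203 FPKM without it, a fall of 12.4-fold (log2 -2.04, limma adjusted p = 0.000346). Batf3, a partner of Jun proteins in immune cells, fell from 0.911 to 0.107 FPKM, with 36 and 39 fragments against 4 and 2 (log2 -1.22, limma adjusted p = 0.00140). Nfe2l2, which encodes NRF2, fell by 1.09 on the log2 scale (limma adjusted p = 0.0144), and lost its call without either Exosc3-present library (adjusted p = 0.0530 and 0.0609) and with scaling without the 50 highest rows (0.103). The list had 3 risers and 5 fallers when Exosc3-depleted replicate 1 was left out, and 1 and 6 when its partner, replicate 2, was left out.

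Other immediate early genes went both ways. Of 32 such genes 23 were tested, of which 6 rose and 6 fell, against 12.6% and 30.1% of all tested rows (median log2 -0.05, against -0.27). Cyr61, a secreted matrix-associated protein, was at 1.86 and 1.60 FPKM with Exosc3 and at 92.2 and 77.4 FPKM without it (log2 5.26). The kinase gene Plk2 went from 4.48 and 5.32 FPKM to 54.8 and 81.3 FPKM (log2 3.64), and the antiproliferative gene Btg2 from 4.44 and 4.35 FPKM to 24.5 and 26.0 FPKM (log2 2.39). Klf4, a pluripotency factor as well as an immediate early gene, fell from 24.4 and 22.6 FPKM to 6.86 and 8.34 FPKM (log2 -1.57), and Myc fell by 1.01 on the log2 scale. The limma adjusted p-values of these 5 genes lay between 0.000111 and 0.00517. Egr2, Egr3 and Egr4, the paralogues of Egr1, were each at or below 0.0855 FPKM in every library and were not tested. Leaving out either Exosc3-present library gave 4 risers and 4 fallers, and leaving out Exosc3-depleted replicate 1 gave 11 and 7. Scaling without the 50 highest rows gave 10 and 5.

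Kinases and promoter-binding factors that carry signals to the AP-1 genes formed another pair of lists. Of 25 MAP kinase pathway genes 18 were tested, of which 1 rose and 8 fell, where 12.6% and 30.1% of all tested rows did (median log2 -0.39, against -0.27). All 4 genes of the p38 kinases fell at an adjusted p under 0.05. Mapk11 went from 4.75 and 4.92 FPKM to 0.785 and 0.605 FPKM (log2 -2.16, limma adjusted p = 0.000388). Mapk12 changed by log2 -1.14, Mapk13 by -0.75 (limma adjusted p = 0.0185) and Mapk14 by -0.57 (limma adjusted p = 0.0426). Map2k3, which activates p38, fell by 1.41 on the log2 scale, and Mapk3, which encodes the ERK1 kinase, went from 18.5 and 16.9 FPKM to 5.33 and 4.73 FPKM (log2 -1.72, limma adjusted p = 0.000734). The Jun kinase genes Mapk8 (log2 -0.24) and Mapk9 (-0.43) did not pass. With scaling without the 50 highest rows, the falls called were those of Mapk3, Mapk11, Mapk12 and Map2k3. Mapk13 and Mapk14 were thus not called under that scaling. The number of falls was 5 or 3 when Exosc3-present replicate 1 or 2 was left out, 12 when Exosc3-depleted replicate 2 was, and 4 with scaling without the 50 highest rows. Mapk12 lost its call when Exosc3-present replicate 2 was left out (limma adjusted p = 0.0505). A list of 11 regulators of immediate early promoters had 6 genes with a row, all tested, and 5 without. The 6 were Srf, Elk4 (a TCF gene), Mkl2 (an MRTF gene), Creb1, and the CREB coactivator genes Crtc1 and Crtc2. Of these 6, limma called 0, and 1 (Crtc1) had an unadjusted p under 0.05. Limma-voom also called 0, while median-of-ratios scaling and scaling without the 50 highest rows each called 1 higher. Srf was at 5.03 and 4.99 FPKM against 5.71 and 4.33 FPKM, which overlapped. When Exosc3-depleted replicate 1 was left out 4 of these 6 were called higher, and when replicate 2 of that group was left out 1 was higher and 1 lower.

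**Figure D5:**
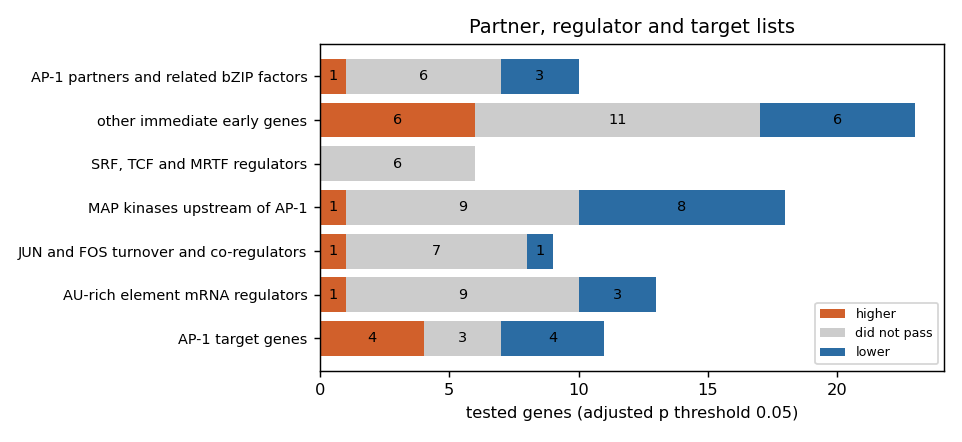
Number of tested genes that rose, did not pass or fell in 7 lists of AP-1 partners, other immediate early genes, upstream regulators and targets. Among all tested rows 12.6% rose and 30.1% fell. In the lists, 8 of 18 MAP kinase genes fell and 4 of 11 AP-1 target genes rose. With the filter on the Exosc3-present group alone, 3 of 9 AP-1 target genes rose.

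Genes that act on Jun and Fos proteins or on AU-rich mRNAs are read against the same background, 12.6% higher and 30.1% lower. Of 9 tested genes for turnover and co-regulation of Jun and Fos, Cul4b, a ubiquitin ligase scaffold, rose (log2 0.96, limma adjusted p = 0.0372) and the deacetylase gene Hdac3 fell (log2 -0.79, limma adjusted p = 0.00864), with a list median of log2 -0.21. The Hdac3 call ended under the 3 other scalings (limma adjusted p between 0.0545 and 0.0765) and without either Exosc3-present library (0.128 and 0.158). Cul4b did not pass when low values were kept (limma adjusted p = 0.0893) or when Exosc3-present replicate 1 was left out (0.167). Of 13 tested regulators of AU-rich mRNAs 1 rose and 3 fell (median log2 -0.19). Zfp36, which encodes tristetraprolin, went from 1.58 and 1.91 FPKM to 3.12 and 3.12 FPKM (log2 0.69, limma adjusted p = 0.0222), and the endonuclease gene Zc3h12a from 2.88 and 2.59 FPKM to 0.973 and 0.892 FPKM (log2 -1.18, limma adjusted p = 0.00253). Zfp36l2 (log2 -0.88) and Parn (-0.70), a poly(A) nuclease gene, also fell. Without either Exosc3-present library the calls of Zfp36, Zfp36l2 and Parn ended, and 0 rose and 1 fell. The Parn call also ended under the 3 other scalings, and that of Zfp36l2 with scaling without the 50 highest rows.

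Known AP-1 target genes also went both ways. Of 20 such genes 11 were tested, of which 4 rose and 4 fell, against 12.6% and 30.1% of all tested rows (median log2 0.18, against -0.27). Plaur, the urokinase receptor gene, went from 5.96 and 5.17 FPKM to 20.8 and 18.8 FPKM (log2 1.74), and the filament gene Vim from 29.3 and 32.6 FPKM to 78.3 and 72.0 FPKM (log2 1.27). Spp1, which encodes osteopontin, fell from 43.1 and 55.1 FPKM to 13.5 and 16.0 FPKM (log2 -1.70). These 3 genes had limma adjusted p-values between 0.000730 and 0.00155. With the filter on the Exosc3-present group alone, 9 target genes were tested, of which 3 rose and 4 fell. Leaving out Exosc3-present replicate 1 gave 3 risers and 2 fallers. The target genes Mmp10, Mmp13 and Ccl2 were listed at 0 in all 4 libraries.

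Markers of other cell types moved in the same comparison as the members. The counts below stand beside 12.6% of all tested rows that rose and 30.1% that fell. Of 7 tested trophectoderm markers 6 rose and 1 fell, and their summed level was 26.3 and 28.9 FPKM with Exosc3 and 145 and 111 FPKM without it. The risers were the keratin genes Krt7, Krt8, Krt18 and Krt19 and the transcription factor genes Hand1 (0.0346 and 0.0477 FPKM against 1.02 and 0.954 FPKM) and Ascl2 (0.877 and 0.820 FPKM against 2.25 and 1.40 FPKM), and Eomes fell. The other 3 transcription factor genes were too low to be tested: Cdx2 had 3 and 2 fragments with Exosc3 and 20 and 14 without it, Gata3 had 0 and 1 against 12 and 17, and Elf5 had 5 and 2 against 0 and 0. Hand1 passed the filter only through its Exosc3-depleted values. With the filter on the Exosc3-present group alone, 6 trophectoderm markers were tested, of which 5 rose and 1 fell. Under that filter 823 of all 9130 tested rows rose and 2932 fell. Of 10 tested primitive endoderm markers 8 rose and 0 fell (sums of 62.3 and 75.4 FPKM against 176 and 175 FPKM), led by the collagen genes Col4a2 (log2 2.24) and Col4a1 (1.96). Of 5 tested fibroblast markers 3 rose and 1 fell (sums of 7.42 and 8.45 FPKM against 12.6 and 10.2 FPKM). Pdgfra (log2 0.64, limma adjusted p = 0.0339) is on both this list and the primitive endoderm list and counts as a riser in each. Like Pdgfra, the fibroblast riser Twist1 passed the filter only through its Exosc3-depleted values. With the filter on the Exosc3-present group alone, 2 fibroblast markers were tested, of which 1 rose and 1 fell. The fibroblast genes Dcn, Lum and Postn were listed at 0 in all libraries. Without Exosc3-present replicate 1 or 2 the primitive endoderm risers numbered 5 or 4, and the fibroblast risers 1 or 2. The embryonic stem cell markers summed to 3129.8 and 3139 FPKM against 1966 and 1310.2 FPKM. In bulk RNA, a change in the number of cells of a type and a change in RNA per cell cannot be told apart. The part of other cell types in the rise of the AP-1 genes was not tested.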

How the data were processed

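Per the labels, 4 stranded, ribosomal RNA-depleted, paired-end libraries were made from total RNA. The authors deposited FPKM values per UCSC gene model. The submitters' processing notes name the build mm9 and, among tools, STAR, Bowtie2, bedtools, Picard and edgeR. Neither versions nor roles are listed, so the step that made the FPKM is not given in the sources used here.

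Both groups were compared in limma (version 3.58.1, run in R 4.3.3), fitted to log2(FPKM + 0.5) with a prior that follows the level and with no covariate. Rows needed a mean of at least 0.5 FPKM. Two-sided p-values were adjusted after Benjamini and Hochberg over the 9336 tested rows (threshold 0.05). Scripts were tested on simulated data. Since each FPKM is a multiple of what a single fragment is worth in that row, library totals, model lengths and fragments could be worked out: all 13598 rows above 0 in at least 3 libraries came out whole, within 1e-09 FPKM plus 5e-09 of the value. Counting intervals are exact Poisson 95% intervals and cover counting error only.

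Members and lists were chosen with earlier results of these data known. Named genes are the members, Exosc3 and, per list, up to 4 genes with the smallest p among those called with a mean of at least 1 FPKM. Other list genes were named after their values were seen, and a gene that the rule names is not reported here. Sequences and gene structures came from RefSeq and GENCODE M21 on GRCm38, not from mm9, and were matched by symbol. Alternatives covered the pseudocount, filter, scaling, prior, replicate block and each library left out; a group left with 1 library was assumed to vary like the other.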

Additional observations from a re-analysis of the deposited data

How the results depend on the processing

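The count of 6 risen members was 5 with the filter at a mean of 2 FPKM, where Fos was not tested, 7 with no filter and 7 with limma-voom, both by adding Fosl2, and 6 in the other 13 alternatives. The count of fallen members (Ier3) was between 0 and 1 with single libraries left out, being 0 without Exosc3-present replicate 2. Over 111 pairs of a tested member and an alternative, 110 kept their direction and their side of the threshold, 1 lost its call and 0 reversed. Over all rows, 1177 rose and 2806 fell. The number of risers was 667 with the filter at a mean of 2 FPKM (fewer rows tested), 1797 with limma-voom (more rows tested), and between 668 and 2183 with single libraries left out. The number of fallers was 1848 with median-of-ratios scaling, 1782 with quantile normalization, 1330 with scaling without the 50 highest rows, and between 1082 and 4715 with single libraries left out; beyond the shift of the median row, the cause was not tested. Replicate numbers are shared by the groups: the deviations of same-numbered libraries correlated at 0.244 over 9336 rows, but the labels give no shared culture or day. With the replicate block 6 members rose, 1 fell, and 1431 rows rose and 3468 fell. The log2 difference within the Exosc3-present pair had an SD of 0.188 over rows and that within the Exosc3-depleted pair 0.432, and leaving out a library leaves the spread to the other pair. Depth limits Fosb and Fosl2, with 12 to 136 fragments a library.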

Other observations

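Jun, Junb and Jund are single-exon genes, and other single-exon genes also rose more often than spliced ones. Of 7935 tested symbols matched to a GENCODE coding transcript (85.6% of tested symbols), genes with a mean of at least 0.5 FPKM in the Exosc3-present group were compared. Histone symbols were left out of the single-exon genes only. Of 124 such single-exon genes 51 rose (41.1%) and 14 fell (11.3%), with a median of log2 0.38. Without Jun, Junb and Jund, 48 of 121 rose (39.7%). Of 7472 genes with more exons 601 rose (8.04%) and 2476 fell (33.1%), with a median of log2 -0.33. The share of risers was between 16.9% and 54.0% for single-exon genes and at most 18.7% for the others under the alternatives, and it was higher for single-exon genes in each of the 16. Both lowest single-exon shares came without an Exosc3-present library. Of 59 single-exon histone genes 9 rose (15.3%). This comparison was chosen after seeing the data, and no test was run on it.

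The AU-rich nonamer that Fos and Fosl2 carry was counted in the same way, with no test. Of 552 tested genes with the nonamer in the 3′ untranslated region 10.1% rose and 26.1% fell, against 11.2% and 32.0% of 7294 genes without it. The regions with the nonamer were longer, with a median of 2061.5 bases against 861 bases.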
